A study of Mus musculus with 4 samples.

Results

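This report describes 8 mouse genes that carry or control sodium transport in the distal parts of the kidney tubule, in kidneys with experimental membranous nephropathy (MN) and in control kidneys. The genes were taken by symbol from the array annotation: Scnn1a, Scnn1b and Scnn1g for the epithelial sodium channel, Slc12a1 and Slc12a3 for the sodium chloride cotransporters, Kcnj1 for a potassium channel, Atp1b1 for a sodium pump subunit and Umod for uromodulin. They are 8 of 34607 gene names on the array, each with 1 probe, and 7 of them passed the filter on dim probes that left 25293 genes for testing. The selection rule used symbols and not measured values, although the list was drawn up with earlier results of these data known.

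The MN group was 2 kidney RNA samples from female BALB/C mice that were immunized with 0.2 mg of cationic bovine serum albumin (cBSA) in complete Freund's adjuvant and, 2 weeks later, began intravenous cBSA at 13 mg/kg, 3 times a week for 6 weeks. The control group was 2 kidney RNA samples from female BALB/C mice with the same immunization, followed by saline injections on the same schedule (the treatment field of the labels gives PBS). Mice were 6 weeks old when housed for the study. Because the controls were immunized too, the comparison concerns the intravenous cBSA phase and not immunization. The labels do not say whether each sample came from 1 mouse, so the spread between replicates may in part be technical.

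Sodium that escapes the proximal tubule is taken up in turn by the thick ascending limb, the distal convoluted tubule and the connecting tubule and collecting duct. The apical carrier in the thick ascending limb is the cotransporter NKCC2 (Slc12a1), which depends on potassium returned to the lumen by the channel ROMK (Kcnj1). The distal convoluted tubule uses the thiazide-sensitive cotransporter NCC (Slc12a3). Principal cells downstream use the epithelial sodium channel ENaC, built from an alpha (Scnn1a), a beta (Scnn1b) and a gamma (Scnn1g) subunit and opened in part by proteolytic cleavage of alpha and gamma. On the blood side of all these cells the Na,K-ATPase, whose beta 1 subunit is Atp1b1, drives the uptake. Sodium retention in proteinuric kidney disease is commonly studied at ENaC and its proteases, and the question here is whether transcript levels of these carriers differed between MN and control kidneys.

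Every level below rests on a 60-base probe, and the sequences of 5 probes are shown. The alpha and beta subunit probes measured their transcripts on every array while the gamma subunit probe did not; the Kcnj1 probe gave the largest difference among the tested genes; the Slc12a3 probe is shown whole. For the other 4 the second 30 bases are printed, 5′ to 3′ as the annotation gives them, with capitals marking the polyadenylation hexamer AATAAA.
Scnn1a probe: ctttgctcatttttgtatccttccgttcta
Scnn1b probe: agagttacaaccattgtcagtgcctcgttt
Scnn1g probe: gtttataAATAAAgttttattgataatcga
Kcnj1 probe: aatgtcttgtttgttcatttccacatctgc
Slc12a3 probe: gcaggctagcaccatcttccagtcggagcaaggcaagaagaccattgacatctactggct

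The Scnn1g probe stood apart in composition. Its GC content was 20%, against 45% for the Scnn1a and Scnn1b probes, 41.7% for the Kcnj1 probe, 53.3% for the Slc12a3 probe and a median of 43.3% over the 55681 probes of the array. Only 0.275% of all probes were at or below 20% GC, and 15.7% of those 153 probes were well above background on all 4 arrays, against 58.6% of all probes. The hexamer AATAAA, searched on the strand printed and not in its reverse complement, began at base 38 of the Scnn1g probe and was absent from the other 7. It occurred in 10.1% of all probes, 68.5% of which were well above background on all 4 arrays. Whether GC content or the hexamer bears on the dim Scnn1g signal was not tested. In mm9, the build of the array's annotation, the Scnn1g probe lay at chr7:128911932-128911991 and the Scnn1b probe at chr7:129061584-129061643, both on the plus strand and 149593 bases apart, with 0 genes between these neighbours in the RefSeq gene order of GRCm38.p6. The Scnn1a probe lay at chr6:125294843-125294902 (plus strand), the Slc12a3 probe at chr8:96875636-96875695 (plus strand) and the Kcnj1 probe at chr9:32206612-32206671 (plus strand). The other probes lay at chr2:125055143-125055202 for Slc12a1 (plus strand), chr1:166368263-166368322 for Atp1b1 (minus strand) and chr7:126606529-126606588 for Umod (minus strand). The exons and untranslated regions under these positions were not annotated in the sources used here.

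Levels are given as log2 of the background-corrected spot signal minus the 75th percentile of that array, so 0 is a spot at the 75th percentile, and levels of different probes are not comparable with each other. Replicate 1 of both groups was hybridized on slide 1 and replicate 2 of both groups on slide 2. The share of spots well above background was 64.0% and 63.1% on the MN arrays and 65.9% and 79.5% on the control arrays. The 75th percentile of the signal before scaling was 767 and 1204 on the MN arrays, against 737 and 818 on the control arrays. Control 2 therefore stood apart in detection and MN 2 in overall brightness. The scanner output also checks the slope of the spike-in controls. That slope was out of range on both slide 1 arrays (0.895 for MN 1 and for control 1). It was in range on slide 2 (0.968 for MN 2 and 0.949 for control 2). Across the whole array 5 genes rose and 0 fell in MN kidneys at an adjusted p under 0.05 (limma with Benjamini-Hochberg adjustment), and with the slide as a replicate block 0 genes passed. Precision is limited by having 2 arrays a group.

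No tested distal sodium transport gene showed a difference between MN and control kidneys that passed the test. Of the 7 tested, 0 passed in either direction, where 0.0198% of all genes tested passed as higher and 0.0% as lower. Each adjusted p was 1.0 (limma). None of the 7 had an unadjusted p under 0.05 either, against 7.04% of all genes. The differences ran from -0.15 for Kcnj1 to 0.14 for Scnn1a, with 4 positive and 3 negative and a median of 0.03 (all genes: -0.05). Their median size without regard to sign was 0.0697, against 0.144 over all genes. In the fit with 1 row per probe, in which 0.0193% of 36259 probes passed, 0 of the 7 member probes passed.

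**Figure D1:**
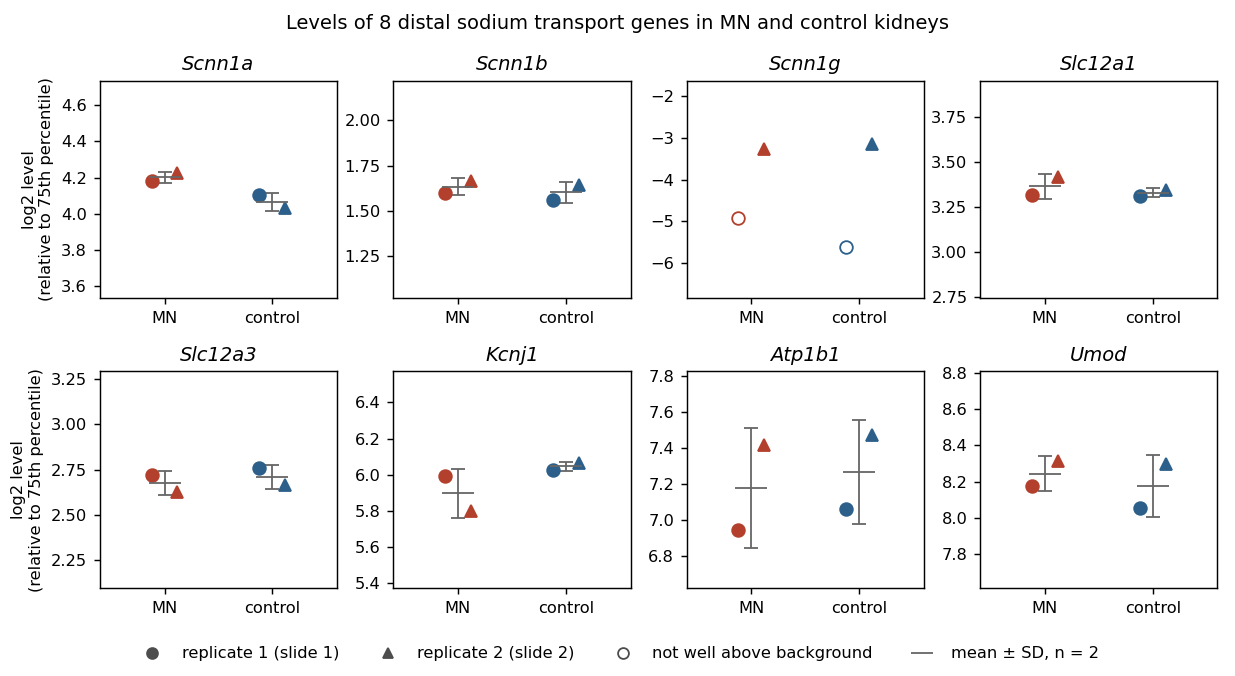
Log2 level of each gene relative to the 75th percentile of its array, with MN on the left and control on the right of each panel; circles are replicate 1 on slide 1, triangles replicate 2 on slide 2, and bars the mean and SD of 2 arrays. Each panel spans the same range except Scnn1g, whose replicate 1 arrays (open circles) were not well above background in either group and which has no mean drawn. MN points lie above both control points for Scnn1a and below both for Kcnj1, and the groups overlap in the other panels.

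Scnn1a encodes the subunit without which little ENaC reaches the membrane. Its level was 4.18 and 4.22 in MN kidneys 1 and 2, against 4.10 and 4.03 in control kidneys 1 and 2. Both MN values were above both control values, by a margin smaller than the fitted error. The difference was 0.14 ± 0.13 (SE, n = 2 each; 95% interval -0.24 to 0.51), with fold bounds of 0.849-fold and 1.42-fold. It was 0.08 within slide 1 and 0.19 within slide 2. This was the 1 gene of the 7 whose groups did not overlap with MN higher, where 13.2% of all genes tested did the same.

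Scnn1b, the beta subunit, contributes to channel assembly and turnover. It was at 1.60 and 1.67 in MN kidneys, against 1.56 and 1.64 in control kidneys. On both slides the MN array read slightly above the control array, but the groups overlapped. The difference was 0.03 ± 0.14 (SE, n = 2 each), with a 95% interval from -0.35 to 0.41, or 0.786-fold to 1.33-fold.

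Scnn1g, the gamma subunit that is cleaved by several serine proteases, could not be compared. Its signal was 25.4 and 125 in MN kidneys, against 15.0 and 93.3 in control kidneys, with scanner error estimates of 7.08 and 16.8 in MN and 5.47 and 9.81 in control. The probe was well above background on 1 of 2 MN arrays and 1 of 2 control arrays, in each group the array on slide 2, so it did not enter the test. On the log2 scale the levels were -4.92 and -3.27 in MN kidneys, against -5.62 and -3.13 in control kidneys. The 2 arrays of a group lay farther apart than the groups did. Within slide 2, where both arrays measured it, MN minus control was -0.14, and on slide 1 the dim values gave 0.70. Without the filter the fitted difference was 0.28 ± 1.11 (SE), with a 95% interval from -2.90 to 3.47 and an adjusted p of 1.0 (limma), and normexp background correction gave -0.02. A change of several fold in either direction was thus not detectable with this probe, and the ENaC result above covers the alpha and beta subunits only.

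Slc12a1 encodes NKCC2, the target of loop diuretics. It was at 3.32 and 3.41 in MN kidneys, against 3.31 and 3.35 in control kidneys. The replicate 1 arrays differed by under 0.01 and the groups overlapped. The difference was 0.04 ± 0.14 (SE, n = 2 each; 95% interval -0.34 to 0.41).

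Slc12a3 encodes NCC, the target of thiazides, which is switched on by phosphorylation. It was at 2.72 and 2.63 in MN kidneys, against 2.76 and 2.66 in control kidneys. MN read below control on both slides by the same amount (-0.04 each), and the groups overlapped. The difference was -0.04 ± 0.14 (SE, n = 2 each; 95% interval -0.42 to 0.35). The size and sign of so small a value depend on the processing: with normexp background correction it was 0.02.

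Kcnj1 encodes ROMK, which recycles potassium in the thick ascending limb and secretes it in the collecting duct. It was at 5.99 and 5.80 in MN kidneys, against 6.03 and 6.06 in control kidneys. Both MN values were below both control values, and MN 2 was the array farthest from the rest. The difference was -0.15 ± 0.15 (SE, n = 2 each; 95% interval -0.56 to 0.26), or 0.902-fold. It was -0.03 within slide 1 and -0.26 within slide 2. Kcnj1 was the 1 gene of the 7 whose groups did not overlap with MN lower, a pattern shown by 19.8% of all genes tested.

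Atp1b1 encodes the beta 1 subunit that carries the Na,K-ATPase to the basolateral membrane along the whole tubule. It was at 6.95 and 7.41 in MN kidneys, against 7.07 and 7.47 in control kidneys. In both groups the slide 2 array was higher, by 0.47 in MN and 0.40 in control, which is more than the groups differed. The difference between groups was -0.09 ± 0.26 (SE, n = 2 each), with a 95% interval from -0.80 to 0.62, the widest of the 7. Its bounds were 0.575-fold and 1.54-fold. With the slide as a block the interval narrowed to -0.39 to 0.21.

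Umod encodes uromodulin, the main protein of normal urine, made in the thick ascending limb, where it promotes NKCC2 activity. It was at 8.18 and 8.31 in MN kidneys, against 8.05 and 8.30 in control kidneys. MN and control almost coincided on slide 2, and the groups overlapped. The difference was 0.07 ± 0.16 (SE, n = 2 each; 95% interval -0.38 to 0.52), being 0.12 within slide 1 and 0.02 within slide 2.

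**Figure D2:**
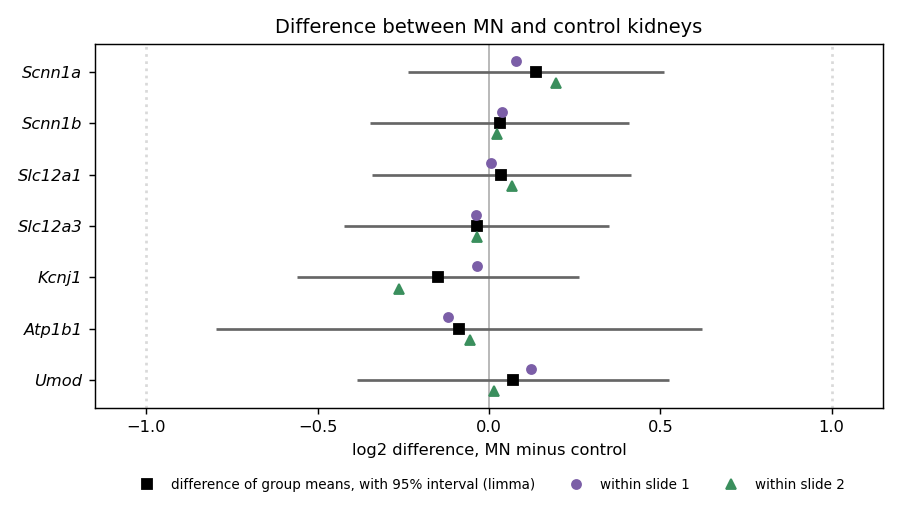
Log2 difference in level, MN minus control, for the 7 tested genes; squares are differences of group means with 95% intervals from limma, circles the difference within slide 1 and triangles within slide 2. Every interval, from all 4 arrays, includes 0 and lies between -1 and 1, with the widest, for Atp1b1, from -0.80 to 0.62.

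The intervals give the range of changes these arrays leave possible. The lowest bound of the 7 was 0.575-fold and the highest 1.54-fold, both for Atp1b1, so with all 4 arrays a doubling or a halving lay outside every interval, each taken singly. For Atp1b1 this did not hold with 1 array left out: its log2 interval reached -1.19 without MN 2 or without control 1, and 1.02 without MN 1 or without control 2. A smaller change in transcript lay inside them, and protein amount, cleavage and phosphorylation of the carriers were not measured. Because whole kidney RNA was used, fewer cells of a type and less RNA per cell cannot be told apart.

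Between slides these genes differed about as much as between MN and control. Slide 1 held replicate 1 and slide 2 replicate 2 of both groups, so slide and replicate cannot be told apart. For 5 of the 7 the shift between slides, averaged over both groups, was larger in size than the difference between MN and control, which held for 60.9% of all genes tested. Scnn1a and Kcnj1 were the exceptions. The median size of the slide shift was 0.0800 for the 7 genes and 0.215 for all genes, again without matching for brightness. All 7 had the same sign of MN minus control on both slides, as did 63.4% of all genes. With the slide as a replicate block, 15.3% of all genes had an unadjusted p under 0.05 and 0 of the 7 did. The lowest p among the 7 in that fit was for Scnn1a, with an adjusted p of 0.592 (limma), and Kcnj1 followed at 0.607.

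**Figure D3:**
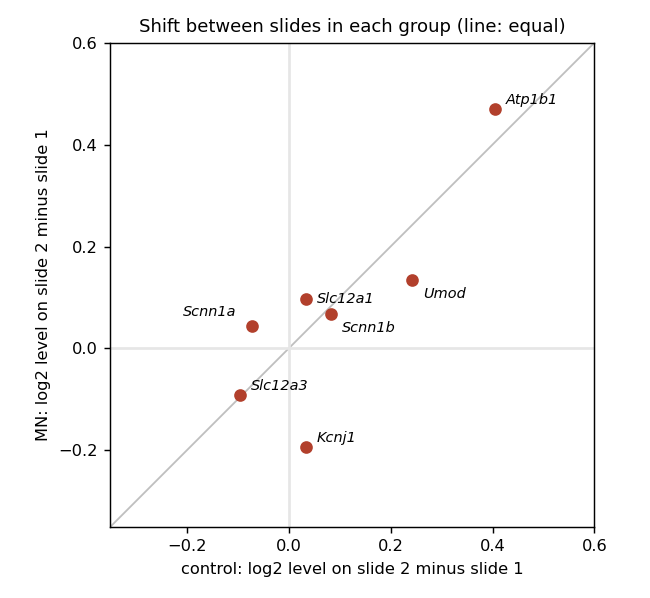
Shift in log2 level from slide 1 to slide 2 in MN kidneys (vertical axis) against the same shift in control kidneys (horizontal axis), 1 point per tested gene; the line marks equal shifts. Atp1b1 lies far along the line (0.47 in MN, 0.40 in control), while Kcnj1 is at -0.19 in MN and 0.03 in control.

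Some regulators of ENaC had larger estimates than the channel subunits, but none passed the test. In the list of the aldosterone pathway and ENaC regulators, 0 of 14 genes passed in either direction, 8 were positive and the median difference was 0.06. Sgk1, the kinase that keeps ENaC at the membrane, was at 5.08 and 5.14 in MN kidneys, against 4.57 and 4.62 in control kidneys. The groups were well apart, with the same gap on both slides (0.50 and 0.51), yet the difference of 0.51 ± 0.13 (SE, n = 2 each) had an adjusted p of 0.551 (limma). Tsc22d3 (GILZ), a corticosteroid-induced regulator that acts with Sgk1, was at 4.03 and 4.36 in MN kidneys, against 3.32 and 3.33 in control kidneys. Its difference was 0.87 ± 0.18 (adjusted p = 0.432). Usp2, a deubiquitylase that counters ENaC removal, had a difference of 0.47 ± 0.20. These 3 genes, with Usp10 at 0.17 and Nedd4l at 0.08, were the 5 of 14 whose groups did not overlap with MN higher (13.2% of all genes tested), and 0 of 14 did so with MN lower (19.8% of all genes tested).

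For the mineralocorticoid receptor and its gatekeeper enzyme the groups overlapped. Nr3c2, the mineralocorticoid receptor, differed by -0.12 ± 0.32, with 0.42 within slide 1 and -0.66 within slide 2. Hsd11b2, the enzyme that shields that receptor from glucocorticoids, differed by -0.03 ± 0.15. For Nedd4l, the ubiquitin ligase that withdraws ENaC from the membrane, both MN arrays were above both control arrays, with a difference of 0.08 ± 0.13, and its other probe gave 0.22.

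Among 12 measured ENaC-processing proteases and their inhibitors, 0 passed, 8 were positive and the median was 0.03. Plat, tissue plasminogen activator, was at 1.02 and 1.08 in MN kidneys, against 0.58 and 0.34 in control kidneys, a difference of 0.58 ± 0.16 (adjusted p = 0.565). Tmprss4, a membrane serine protease, differed by 0.39 ± 0.15. Plat and Tmprss4 were among the 3 of 12 whose groups did not overlap with MN higher (13.2% of all genes tested). With MN lower, 0 of 12 did so (19.8% of all genes tested). Furin, which cleaves ENaC inside the cell, differed by 0.01 ± 0.20, and Prss8 (prostasin), which acts at the membrane, by -0.11 ± 0.21. Serpine2, which inhibits prostasin, was at 0.24 ± 0.25 and at 0.01 with normexp.

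The list of the WNK and SPAK kinases and other regulators of NCC and NKCC2 was close to 0. Of 13 measured genes 0 passed, 4 were positive, the median was -0.05, and the range ran from -0.12 to 0.12, and the groups overlapped for all 13 (over all genes tested, 13.2% did not overlap with MN higher and 19.8% with MN lower). Stk39 (SPAK) was at 0.12 ± 0.18, Wnk4 at 0.04 ± 0.15 and Wnk1 at -0.02 ± 0.16. Another Wnk1 probe, dimmer than the one used, gave 1.74, so the Wnk1 value depends on the probe. The adaptors Cab39 and Cab39l (MO25) were at -0.10 and -0.11.

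Na,K-ATPase subunits and the FXYD proteins that tune the pump gave 0 of 10 passing, with 7 positive and a median of 0.09. Fxyd6 was at 1.68 and 1.42 in MN kidneys, against 0.83 and 0.66 in control kidneys, a difference of 0.81 ± 0.17 (adjusted p = 0.455). Fxyd2, the gamma subunit of the pump, was at 0.01 ± 0.47 and Fxyd4, which is found in the collecting duct, at -0.11 ± 0.13.

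The partners of NKCC2 and ROMK in the loop of Henle gave 0 of 13 passing, 6 positive and a median of -0.02 (0.02 with quantile normalization). Cldn19, a tight junction protein of the thick ascending limb, was at 0.40 ± 0.16, and Cldn10, which forms a sodium pore there, at -0.25 ± 0.16. Bsnd (barttin), a subunit of the basolateral chloride channels, was at -0.17 ± 0.15. Other potassium channels of the distal nephron gave 0 of 7 passing and a median of 0.04.

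The partners of NCC in the distal convoluted and connecting tubules gave 0 of 14 passing, 5 positive and a median of -0.11. Calb1, the calcium buffer calbindin of these segments, was at 3.44 and 3.05 in MN kidneys, against 3.82 and 3.64 in control kidneys. The Calb1 difference was -0.48 ± 0.20 (adjusted p = 0.778, limma), and its other probe gave -0.50. Its groups did not overlap. Of the 14 genes, 3 did not overlap with MN higher and 3, Calb1 among them, with MN lower (13.2% and 19.8% of all genes tested). S100g, another calcium buffer, was at -0.38 ± 0.39, Trpm6, the magnesium channel, at 0.26 ± 0.14 and Pvalb, parvalbumin, at -0.15 ± 0.18. Sall3 was at 0.48 ± 0.14, or 0.14 with normexp. Upstream, the list of proximal sodium transporters gave 0 of 12 passing and a median of -0.03, with Slc5a8, a sodium-coupled monocarboxylate transporter, at -0.47 ± 0.25.

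**Figure D4:**
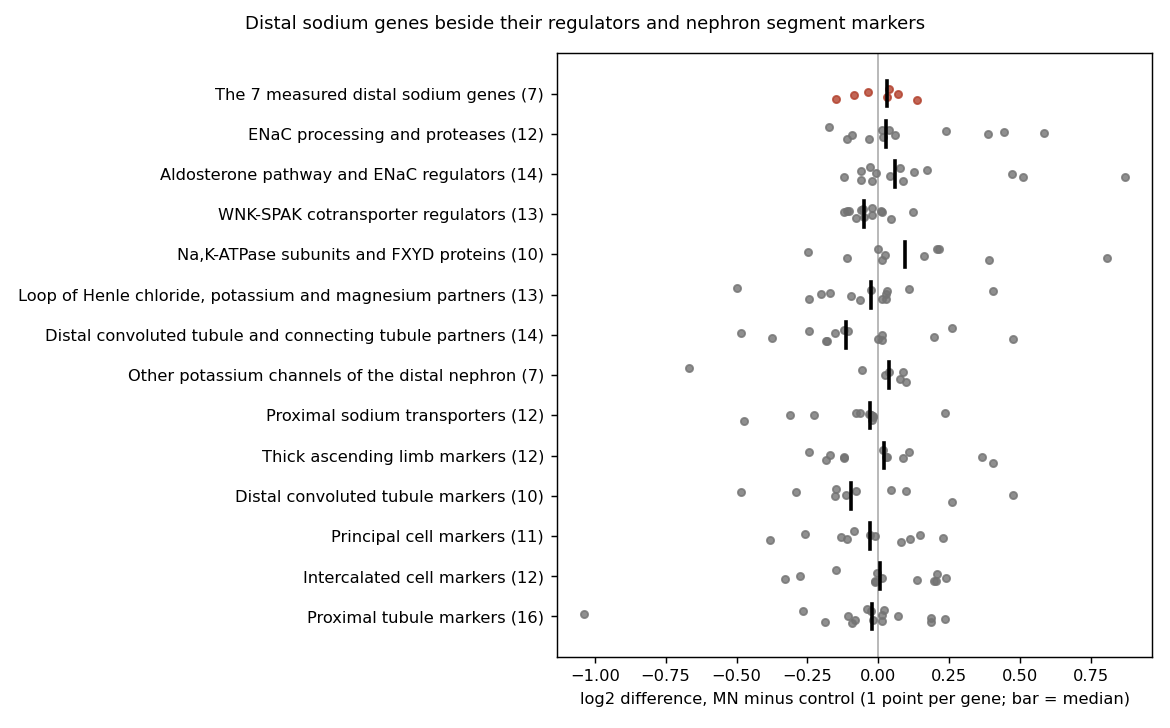
Log2 difference in level, MN minus control, for each tested gene (points) with the median of each list (bar); the top row holds the 7 distal sodium transport genes and the lower rows their regulators, partners and the markers of tubule segments, with the number of genes in parentheses. The 7 genes stay between -0.15 and 0.14, and the median of each list drawn lies between -0.11 and 0.09. Some genes are in more than 1 list, so the rows are not independent.

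Markers of the segments that house these carriers were measured on all 4 arrays, which bears on the kidney label. This held for 12 of 12 markers of the thick ascending limb, 10 of 10 of the distal convoluted tubule, 11 of 12 of principal cells and 12 of 12 of intercalated cells. Their median differences were 0.02, -0.10, -0.03 and 0.00, and 0 of these markers passed. Several of these markers, such as Cldn10, Bsnd, Calb1 and Pvalb, are also in the partner lists above. The distal convoluted tubule median was -0.03 with normexp and -0.05 with quantile normalization. The summed signal of the thick ascending limb markers, in multiples of the 75th percentile of each array, was 188 and 185 in MN kidneys, against 205 and 207 in control kidneys. That of the distal convoluted tubule markers was 74.1 and 68.6 in MN kidneys, against 85.5 and 73.8 in control kidneys. That of the principal cell markers was 93.2 and 91.6 in MN kidneys, against 102 and 98.8 in control kidneys. That of the intercalated cell markers was 146 and 152 in MN kidneys, against 148 and 141 in control kidneys. The first 3 sums were lower in MN on both slides, and the intercalated cell sum was lower on slide 1 and higher on slide 2. Of the tested distal sodium transport genes, Kcnj1, Slc12a3 and Atp1b1 were also lower in MN on both slides. Slc12a1, Umod, Scnn1a and Scnn1b were higher in MN on both. The sums are led by their brightest probes and carry no test. Aqp3, a water channel of principal cells, was at -0.38 ± 0.15 (adjusted p = 0.775) and Aqp2, the vasopressin-regulated one, at -0.09 ± 0.17.

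Markers of podocytes and stroma had higher medians than those of the tubule segments. Of 10 podocyte markers 7 were positive, with a median of 0.63 and a summed signal of 77.8 and 72.7 in MN kidneys, against 39.2 and 35.4 in control kidneys. Of 14 endothelial, stromal and smooth muscle markers 11 were positive (median 0.25; sum 59.7 and 61.9 in MN, 49.0 and 50.4 in control). Neither list had a member that passed. The endothelial genes Pecam1, Cdh5, Kdr, Flt1 and Emcn lay between -0.19 and 0.07, and Ehd3 was at 0.51. Leukocyte markers lay on both sides of 0: 0 of 14 passed and the median was -0.11. Groups did not overlap with MN higher for 5 of the 14 and with MN lower for 1 (13.2% and 19.8% of all genes tested). Among the 5 were S100a8 at 1.49 and Itgam at 1.13, where another Itgam probe gave -0.21. The summed signal of the leukocyte markers was 14.3 and 20.8 in MN kidneys, against 11.02 and 15.8 in control kidneys. The median of plasma cell markers was 0.51, with 0 of 6 passing. Adipocyte markers had a median of 0.40 (0.11 with normexp) and a summed signal of 23.3 and 23.1 in MN kidneys, against 20.8 and 18.5 in control kidneys. Of the 9, Cfd and Adipoq passed as higher (adjusted p = 0.0460 each, limma), and neither did with the slide as a replicate block (adjusted p = 0.0568 each). Adipoq and Cfd both entered the test through the MN arrays alone. The difference of 6.04 for Adipoq was 2.48 with normexp, and that of 6.93 for Cfd was 5.08. The part of these cells in the values for Sgk1, Plat, Fxyd6 and the other genes above, which are not specific to tubule cells, was not tested.

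Genes with a profile over the 4 arrays closest to each member were found by root mean square distance after centring, among 14987 genes well above background on every array. The nearest were Ppp1r14b and Rexo5 for Scnn1a, Slc50a1 and Bet1l for Scnn1b, Zfp51 and Grap for Slc12a1, and Ugp2 and Arhgap44 for Slc12a3. They were Zfp85os and Tm2d1 for Kcnj1, Homer1 and Prp2 for Atp1b1, and Exosc5 and Nup153 for Umod. With 4 arrays such likeness is common: from 81 genes (Atp1b1) to 1150 genes (Slc12a3) lay within a distance of 0.05 of a tested member. For Scnn1g, whose profile follows its slide, 0 genes lay that close, and the nearest, Serpina3h and Eif3j2, were at 0.10 and 0.127.

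The small differences of the 7 genes kept to a narrow band under other processing. Across 13 alternatives and the 7 genes, the 91 values ran from -0.32 to 0.19, and 0 passed the test. Scnn1a stayed positive and Kcnj1 negative in all 13, while each of the other 5 crossed 0 in at least 1. The filters, the mean of probes, the trended variance and the replicate block left every difference as it was. They could not move it, since each gene had 1 probe and each slide held both groups. Leaving out 1 array cannot change the sign where groups do not overlap, as for Scnn1a and Kcnj1. Only normexp, the other scalings and the value table could have changed those signs.

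**Figure D5:**
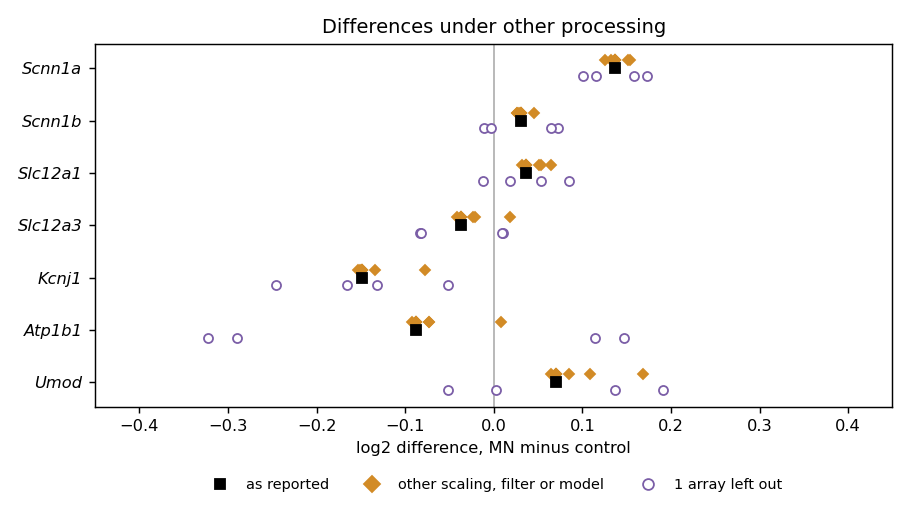
Log2 difference in level, MN minus control, for the 7 tested genes as reported (squares), under another scaling, background correction, filter or model (diamonds) and with 1 array left out (open circles). Values run from -0.32 to 0.19, with Scnn1a above 0 and Kcnj1 below 0 throughout, and Atp1b1 moves most when an array is left out.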

How the data were processed

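Total kidney RNA (0.2 µg per sample) was labelled with Cy3 and hybridized to 1-colour Agilent mouse arrays, 2 samples per group. The scanner output deposited for each array gives linear intensity per spot. Background was subtracted by the software Agilent Feature Extraction (version 10.5.1.1) per the file headers, and probe positions are mm9. The deposited value table holds log2 values, made by the authors by steps not given in the sources used here. Against the scanner values it matched log2 signal scaled to the 75th percentile minus the control mean, with column medians of -0.03 and -0.04 for MN and 0.03 and -0.03 for control. In MN and control alike its column for 1 replicate matched the array of the other, so it served only as an alternative. Which order is right is unknown.

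Control spots were left out, spots of a probe averaged, and log2 signal minus the 75th percentile of each array taken, with no pseudocount. A probe was kept where MN or control had it well above background on both arrays. The brightest probe represented each gene in limma 3.58.1 (R 4.3.3), with Benjamini-Hochberg adjustment over 25293 genes and a threshold of 0.05. The fit was tested on simulated data. RefSeq GRCm38.p6 supplied current gene names by accession for 28026 of 55681 probes, and by symbol or synonym for 3418 and 295. Each slide held replicate 1 or replicate 2 of both groups. After removing group means, arrays with the same number correlated at 0.63 over genes, and 2 pairs are too few to settle a pairing from that; the shared slide comes from the file headers.

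Alternatives were normexp, quantile and median scaling, the value table, no filter and a stricter one, the mean of probes, a trended variance, the slide as a replicate block and leaving out each array. The genes and lists were chosen with earlier results of these data known. Named genes were the members, up to 4 genes of a list with the largest differences among those measured on all arrays, a set of 16 regulators and partners, and the 2 nearest profiles of each member. Only some of the genes so chosen are printed.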

Additional observations from a re-analysis of the deposited data

How the results depend on the processing

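Of 91 values for the 7 tested genes under 13 alternatives, 81 kept their sign and 10 did not, and 0 passed (lowest adjusted p 0.592, limma). The 81 values that kept their sign include those with another filter, the mean of probes, the trended variance or the replicate block. These alternatives could not change a sign, since each gene had 1 probe and each slide held both groups. Slc12a3 was at 0.0188 with normexp background correction and Atp1b1 at 0.00849 with quantile normalization. With 1 array left out, assuming the lone array varies like the other group, the differences ran from -0.0109 to 0.0730 for Scnn1b, -0.0126 to 0.0846 for Slc12a1, -0.0838 to 0.0108 for Slc12a3, -0.322 to 0.147 for Atp1b1 and -0.0515 to 0.191 for Umod. The cause was not tested. With the slide as a replicate block no member's call changed. The count of genes passing over the array was 5, against 0 with the replicate block, 0 with no filter, 0 with the filter on all 4 arrays, 0 to 0 with 1 array left out, 11 with median scaling, 15 with normexp, 16 with a trended robust variance and 20 with quantile normalization. In the fit of all probes it was 7, against 0 with the replicate block and 21 with normexp. With 2 arrays a group, the intervals leave room for changes short of a doubling, and for Atp1b1 with 1 array left out for a doubling or halving, while Scnn1g, near background on slide 1 in both groups, is not measured well enough for any statement.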
